A study of Mus musculus with 4 samples.

Results

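The genes described here encode brakes on cell division and the proteins those brakes act through. They are the INK4 inhibitors (Cdkn2a, Cdkn2b, Cdkn2c and Cdkn2d), the CIP/KIP inhibitors (Cdkn1a and Cdkn1b), the retinoblastoma family (Rb1, Rbl1 and Rbl2) and the tumour suppressor gene Trp53. Array probes were taken as members when the gene name printed in the scanner files was 1 of these 10 symbols, alone or in a name shared by a pair of genes. This gave 44 of 83122 probes, covering 9 of the 10 genes in 11 of 19141 regions. No probe carried the name Cdkn2b, so that gene was not analysed here. A region is a run of neighbouring probes of the same name at most 1000 bp apart, and 10 of the 11 regions had the 2 usable probes needed for a value.

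Whole intestine gave the genomic DNA, from mice of the inbred strain C57BL/6 (Jackson Laboratories) at 32 months (dye Cy5, red) and at 3 months (dye Cy3, green) of age. The header of the first array calls both of its samples WT (wild type), and no treatment is named for either age. Each age was hybridised once to each of 2 arrays, the first for chromosomes 1 to 8 and the second for chromosomes 9 to 19, X and Y. The study asks how DNA methylation differs between young and old animals. The sources used here do not state how methylated DNA was selected before labelling, how many animals a sample holds or their sex, so values are given as signal and not as methylation levels.

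In background knowledge, INK4 proteins block the kinases Cdk4 and Cdk6, and CIP/KIP proteins bind cyclin-Cdk complexes more broadly. Active kinases phosphorylate the retinoblastoma proteins, which otherwise hold E2F transcription factors in check. The protein p53 switches on Cdkn1a after DNA damage, and Arf, a second product of the Cdkn2a locus, stabilises p53 by restraining Mdm2. The Cdkn2a locus is known for rising expression in aging mouse tissues and for promoter methylation in tumours.

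All ratios below are log2 of processed signal at 32 months over 3 months, minus the median of the array. There was 1 sample per age and array and the dyes were never exchanged, so no difference has a replicate check, none was tested across animals, and age and dye cannot be told apart. Each ± is an SD over the probes of a region, which share the same 2 DNA samples. Probes well above background at 1 age or more and free of outlier flags are called usable. This held for 40 of the 44 member probes, and 38 of them were well above background at both ages. In whole tissue a change in the mix of cell types and a change within cells cannot be told apart.

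Most probes of both arrays passed the rule for use, but the median probe of the second array was only slightly brighter than negative controls. Between 74.2% and 76.5% of positioned probes were usable, and the median mean signal of negative control spots was 107 at 32 months on both arrays, against 80 on the first and 61.7 on the second at 3 months. The median mean signal of all probes was 203 and 135 at 32 months on the first and second array, and 113 and 71.8 at 3 months. Genomic DNA signal offers no marker genes against which to check the tissue label. Across the 15353 measured regions, 309 were called higher at 32 months (2.01%) and 97 lower (0.632%). A call needs a median at least 2-fold away from the array's median and every usable probe on that side of 0. Without centring the split was 241 higher and 133 lower, since the median log2 ratio of the second array was -0.14 before centring, and with the scanner's own log ratio it was 242 and 134. After normexp background correction it was 421 and 20. Regions of the X chromosome had a median of -0.070 (508 regions, 20 called lower and 3 higher), against 0.017 for 14836 autosomal regions. All members are autosomal, and the part of that difference in the values below was not tested.

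Cdkn2a, Rbl2 and Rb1 had the highest region medians of the group, and Cdkn1a the lowest. Only the Rb1 region met the rule for a call. The medians were 1.75 ± 1.05 over 3 probes in Cdkn2a, 1.57 ± 1.81 over 4 probes in Rbl2, 1.05 ± 0.36 over 4 probes in Rb1 and -2.00 ± 1.30 over 3 probes in Cdkn1a. Thus 3 of 10 member regions had a median at least 2-fold higher and 1 of 10 a median at least 2-fold lower, where the same held for 2.98% and 1.02% of all regions without the demand that probes agree. After normexp correction these counts were 2 of 10 and none, against 544 and 38 of 15353 regions. After loess correction, uncentred and with block medians removed they were 2 of 10 and 1 of 10 each time. Over all regions the counts were then 424 and 151, 387 and 195, and 414 and 169. With the demand that probes agree, 1 of 10 member regions was called higher and none lower in the main setting. The median of the 10 region medians was -0.16, against 0.015 over all regions.

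**Figure D1:**
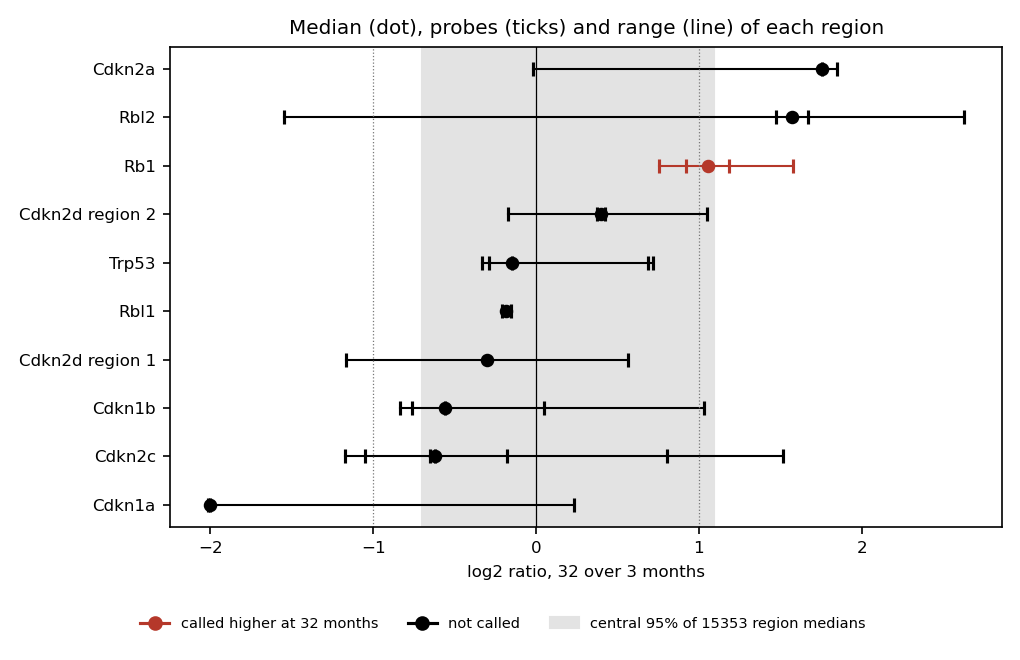
Log2 ratio of 32-month over 3-month signal (horizontal axis) for the 10 measured member regions (rows), with the median as a dot, each usable probe as a tick and the range as a line. The grey band is the central 95% of 15353 region medians, from -0.70 to 1.09. Rb1 (red) is the only region with all probes on 1 side and a median past 1, while Cdkn2a, Rbl2 and Cdkn1a have medians outside the band and a probe on the other side of 0.

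In the order of medians, only some neighbours were separated by more than the larger of their probe SDs. Cdkn2a and Rbl2 differed by 0.18 and Rbl2 and Rb1 by 0.52, both within the SD of 1.81. Rb1 exceeded the next region, the second Cdkn2d region, by 0.65 with an SD of 0.50, and that region exceeded Trp53 by 0.55 with an SD of 0.53. Trp53, Rbl1, the first Cdkn2d region, Cdkn1b and Cdkn2c followed without separation, and Cdkn1a lay 1.38 below Cdkn2c with an SD of 1.30. Of these 10 regions, 8 had probes on both sides of 0, as did 72.3% of all measured regions.

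Cdkn2a, which encodes the Cdk4 and Cdk6 inhibitor Ink4a and, in another reading frame, Arf, was covered by 3 probes on chromosome 4 from 88765589 to 88766810. These positions are those of the array design, whose genome build is not given in the sources used here. The sequences are shown because neighbouring probes of this gene gave different answers. CG pairs, the sites at which mammalian DNA is methylated, are in capitals:
Cdkn2a probe 1, inside: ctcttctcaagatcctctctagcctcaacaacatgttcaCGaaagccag
Cdkn2a probe 2, promoter: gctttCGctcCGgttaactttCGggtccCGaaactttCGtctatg
Cdkn2a probe 3, promoter: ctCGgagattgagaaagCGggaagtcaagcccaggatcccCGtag
Probe 1 had a signal of 5380 at 32 months and 1590 at 3 months, a log2 ratio of 1.75. Probe 2, 525 bp further along, had 4050 at 32 months and 1120 at 3 months, a log2 ratio of 1.85. Probe 3, another 558 bp along, had 1710 at 32 months and 1730 at 3 months, a log2 ratio of -0.021.

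Signal of the first and second Cdkn2a probes was thus 3.37-fold and 3.61-fold higher at 32 months, while the third was level. Among usable probes of the first array, 2.02% and 1.85% were at least as high as these. The third probe kept the region from a call, since its value fell just below 0. It moved to 0.054 after loess correction on brightness and to 0.26 after normexp correction, and the region was called higher in both settings, with medians of 1.83 and 1.62. In the median over all regions, 171 of 15353 regions (1.11%) were at least as high as Cdkn2a. RefSeq gives Cdkn2a 2 start sites, but neither of the windows around them (250 bases before to 50 after each start) holds any of these probes. Matching to windows therefore could not settle the transcript to which the probes are nearest. The letters of the probes were not compared with the exons of Ink4a or Arf, and the higher signal is assigned to neither. The design's labels of promoter and inside do not say whether the Ink4a or the Arf start is meant.

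Cdkn2c, the INK4 gene with the densest cover, had 7 usable probes over 1385 bp of chromosome 4, from 109163174 to 109164558. Its median was -0.62 ± 1.00, and the probes ran from -1.17 to 1.52 without a call. Sorted by position, signals at 32 months were 162, 122, 585, 1550, 3560, 4760 and 2390, against 92.4, 187, 204, 1750, 7990, 7440 and 4940 at 3 months. The probes at positions 1 and 3 were higher at 32 months, at 0.81 and 1.52, and the other 5 were lower, from -0.18 to -1.17. The last 3 probes, all annotated as promoter, were lower together, at -1.17, -0.65 and -1.05.

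A pair of the Cdkn2c probes that lie in 1 RefSeq promoter window differed in sign. The window chr4:109665323-109665622 (GRCm38.p6, minus strand) is shown with both probes in capitals, the third probe first:
Cdkn2c window: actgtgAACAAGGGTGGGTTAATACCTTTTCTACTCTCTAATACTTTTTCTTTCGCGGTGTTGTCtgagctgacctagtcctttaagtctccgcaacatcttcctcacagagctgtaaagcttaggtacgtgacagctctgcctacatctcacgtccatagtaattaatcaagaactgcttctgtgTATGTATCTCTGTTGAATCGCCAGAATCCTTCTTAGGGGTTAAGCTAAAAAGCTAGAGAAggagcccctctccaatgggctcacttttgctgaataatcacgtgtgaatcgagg
The third probe matched bases -244 to -186 from this start and the second probe bases -64 to -5. Their ratios were 1.52 and -0.62, so signal differed in sign across 121 bp of 1 promoter window. Both rest on dim spots at 3 months, with mean signals of 103 and 99.3 against 80 for negative controls. After normexp correction they shrank to 0.48 and -0.11. Another RefSeq start of Cdkn2c lies upstream, with a window (chr4:109666707-109667006, minus strand) that holds 33 CG pairs and no probe. The promoter label of the Cdkn2c probes was not checked against that start.

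Cdkn2d, the remaining INK4 gene on the arrays, had 2 regions on chromosome 9. The first, from 21038919 to 21039345, held 2 probes inside the gene that were each well above background at 1 age only. Probe 1 had a signal of 53.3 at 32 months, not well above background, and 132 at 3 months. Probe 2 had 74.6 at 32 months and 55.5 at 3 months, the 3-month value not well above background. Mean signals were close to those of negative controls, at 117 and 119 at 32 months and 70.8 and 63.1 at 3 months. The log2 ratios of -1.17 and 0.57 gave a median of -0.30 ± 1.23, but after normexp correction both probes were lower, at -0.29 and -0.31, so neither direction nor size is settled for this region. The second region, from 21041128 to 21042182, had 0.40 ± 0.50 over 4 probes, from -0.17 to 1.05.

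In the second Cdkn2d region the bright promoter probe had 8080 at 32 months and 6860 at 3 months, a log2 ratio of 0.38. The other promoter probe had 228 at 32 months and 187 at 3 months, a ratio of 0.43. The highest value of the region, 1.05, came from a dim probe inside the gene with 105 at 32 months and 55.8 at 3 months. No value of this region reached a call under any of the 14 alternative settings.

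Cdkn1a, which encodes a broad Cdk inhibitor and is a main target of p53, had the lowest relative signal at 32 months of all member regions. It lies on chromosome 17, with probes from 28820502 to 28821677. Shown with CG pairs in capitals are its 3 usable probes, since neighbouring probes differed in sign:
Cdkn1a probe 2, promoter: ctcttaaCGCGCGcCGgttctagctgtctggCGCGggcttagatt
Cdkn1a probe 3, inside: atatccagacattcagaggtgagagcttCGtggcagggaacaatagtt
Cdkn1a probe 4, inside: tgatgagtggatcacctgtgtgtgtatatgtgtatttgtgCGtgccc
Probe 2 had a signal of 204 at 32 months and 191 at 3 months, a log2 ratio of 0.23. Probe 3 had 1420 at 32 months and 6270 at 3 months, a ratio of -2.00. Probe 4 had 7530 at 32 months and 33500 at 3 months, a ratio of -2.01.

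Both inside probes of Cdkn1a were thus 4.01-fold and 4.04-fold lower at 32 months, and they lie 75 bp apart. Fewer than 1 in 100 usable probes of the second array were as low (0.710% and 0.694%). The promoter probe, 190 bp before them, was level, which kept the region from a call. The step between that probe and its neighbour was -2.24 in log2. The region median of -2.00 was matched or passed by 34 of 15353 regions (0.221%). With dim probes kept the median was -1.0, after normexp correction -0.95 (probes at -0.95 and -1.04), and with the mean over probes -1.26.

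The level Cdkn1a promoter probe sits whole in the window chr17:29093519-29093818 (GRCm38.p6, plus strand) around 1 of 2 RefSeq starts, at bases -160 to -116. The window is rich in CG, with 23 pairs against a median of 7 over 32851 windows, and the probe is in capitals:
Cdkn1a window: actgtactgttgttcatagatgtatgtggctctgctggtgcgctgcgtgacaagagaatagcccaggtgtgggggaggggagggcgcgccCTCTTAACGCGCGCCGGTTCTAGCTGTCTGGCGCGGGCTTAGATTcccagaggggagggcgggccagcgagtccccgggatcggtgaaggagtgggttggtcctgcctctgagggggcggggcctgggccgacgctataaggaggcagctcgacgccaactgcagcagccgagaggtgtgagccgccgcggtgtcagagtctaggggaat
The window around the other start holds 2 CG pairs and no probe. The dim signal of the promoter probe, with a mean of 143 at 32 months and 74.4 at 3 months beside 107 and 61.7 for negative controls, limits what its ratio can show.

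Cdkn1b, the second CIP/KIP gene, which encodes a brake on cyclin E complexes, had a median of -0.56 ± 0.78 over 5 probes on chromosome 6, from 134885081 to 134886180. Signals at 32 months were 113, 5670, 8970, 7890 and 4380, against 109, 9570, 13200, 3840 and 7810 at 3 months. Of the 4 bright probes, 3 were lower at 32 months, at -0.76, -0.56 and -0.84, and the probe between them was higher at 1.03. That probe lay 144 bp and 261 bp from its neighbours, and 31 of its 51 bases matched the far end of the RefSeq promoter window, at bases -250 to -220. No setting gave a call, and after normexp correction the median was -0.085.

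Rb1, the gene of the retinoblastoma protein, was the member called higher. Its 4 probes, all annotated as promoter, lie within 559 bp of chromosome 14, from 72060343 to 72060901. They are shown with CG pairs in capitals, as the only member region in which every usable probe passed 0 on the same side with a median past 2-fold:
Rb1 probe 1: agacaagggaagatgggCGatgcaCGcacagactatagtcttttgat
Rb1 probe 2: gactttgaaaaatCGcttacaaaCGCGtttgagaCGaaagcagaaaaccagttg
Rb1 probe 3: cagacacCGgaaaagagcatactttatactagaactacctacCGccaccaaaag
Rb1 probe 4: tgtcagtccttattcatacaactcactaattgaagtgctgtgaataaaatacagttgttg
Signals at 32 months were 2970, 1280, 4130 and 1320, against 1730, 472, 2690 and 638 at 3 months. The log2 ratios were 0.92, 1.58, 0.76 and 1.19, so the probes without and with CG pairs both had higher signal at 32 months. No RefSeq promoter window was found for Rb1, so the promoter annotation of its probes is the array design's and was not checked.

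The Rb1 region was 2.08-fold higher at 32 months by its median, just past the threshold of 2-fold, and 407 of 15353 regions (2.65%) were at least as high. Its range over probes of 0.82 was near the median of 0.85 for the 3305 regions with 4 usable probes. The call was kept under 10 of 14 alternative settings and lost under 4. Most of the 10 left the value unchanged at 1.05 and so could not move the call. Among settings that changed the value, only normexp correction (1.26) and the mean over probes (1.11) kept the call. The median was 0.91 with uncentred ratios, 0.91 after loess correction, 0.86 once the medians of array blocks were taken out and 0.92 from the scanner's own log ratio. All 4 probes stayed above 0 in each of these. After normexp correction the 4 probes lay between 1.11 and 1.44.

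**Figure D2:**
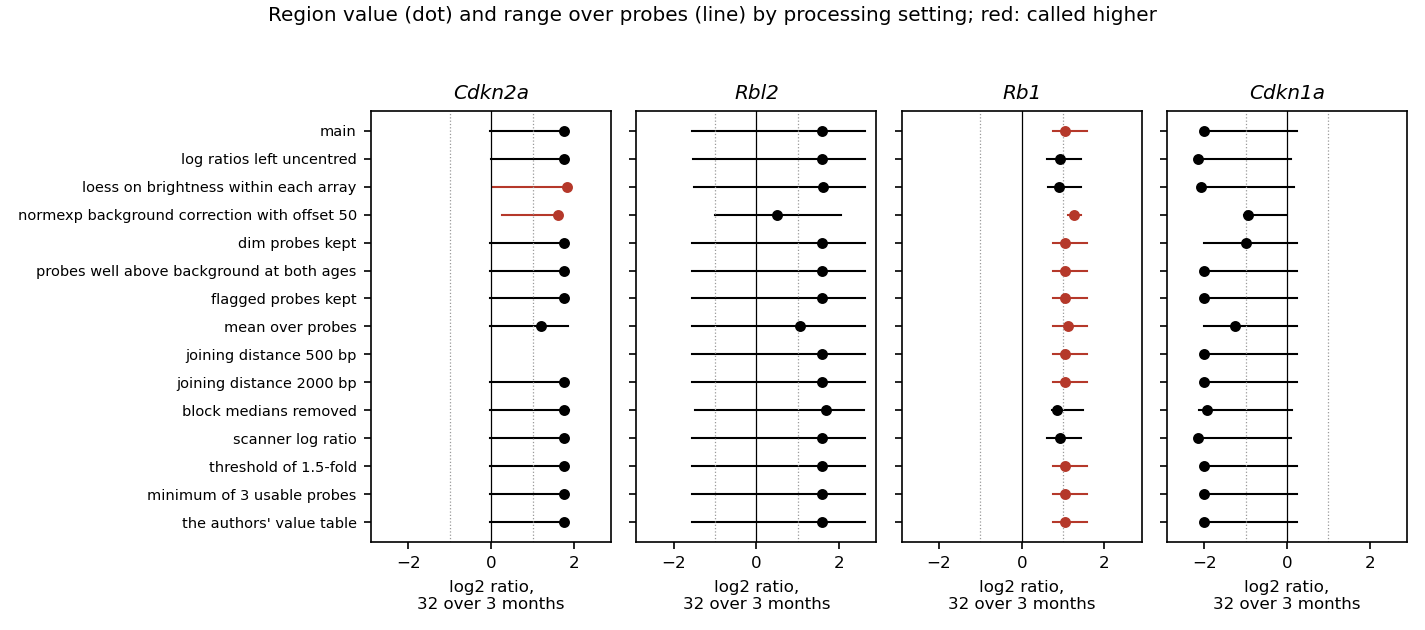
Region value (dot) and range over probes (line) of Cdkn2a, Rbl2, Rb1 and Cdkn1a under the main setting and 14 alternatives (rows), as log2 of 32-month over 3-month signal, with calls in red. Rb1 stays between 0.86 and 1.26 and Cdkn2a between 1.19 and 1.83, while Rbl2 drops to 0.49 and Cdkn1a moves to -0.95 after normexp correction. Cdkn2a has no value at a joining distance of 500 bp, where its probes no longer form a region.

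Rbl2 encodes a relative of the retinoblastoma protein that represses cell cycle genes in resting cells. Its 4 probes on chromosome 8, from 93959440 to 93960529, had the widest range of any member, 4.18 in log2. Only 1.21% of the 3305 regions with 4 usable probes had a range as wide. The probes are shown with CG pairs in capitals, since the 3 promoter probes and the probe inside the gene went opposite ways:
Rbl2 probe 1, promoter: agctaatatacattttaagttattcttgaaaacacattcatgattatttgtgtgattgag
Rbl2 probe 2, promoter: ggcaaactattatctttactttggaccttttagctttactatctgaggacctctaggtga
Rbl2 probe 3, promoter: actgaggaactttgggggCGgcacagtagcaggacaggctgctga
Rbl2 probe 4, inside: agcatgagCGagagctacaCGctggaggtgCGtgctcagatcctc
Signals at 32 months were 418, 792, 22500 and 7710, against 67.3, 284, 7040 and 22500 at 3 months.

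The promoter probes of Rbl2 had log2 ratios of 2.63, 1.48 and 1.67, and the probe inside the gene -1.55. Signal was thus 6.19-fold, 2.78-fold and 3.19-fold higher at 32 months in the promoter, and 2.93-fold lower 284 bp further along. The first probe rests on a 3-month mean signal of 91, close to the 80 of negative controls, and after normexp correction its ratio was 0.35. The bright pair at the border held its opposite signs in that setting, at 2.04 and -1.0, while the region median was 0.49.

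The third Rbl2 probe covers the annotated start itself, at bases -6 to 39 of the RefSeq window chr8:91069807-91070106 (GRCm38.p6, plus strand), in which it is in capitals:
Rbl2 window: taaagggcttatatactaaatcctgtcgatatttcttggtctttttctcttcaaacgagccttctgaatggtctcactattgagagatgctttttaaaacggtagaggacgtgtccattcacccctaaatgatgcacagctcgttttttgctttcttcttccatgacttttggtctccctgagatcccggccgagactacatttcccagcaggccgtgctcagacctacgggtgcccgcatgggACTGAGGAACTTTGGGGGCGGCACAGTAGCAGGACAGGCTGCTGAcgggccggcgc
This window holds 14 CG pairs. The 32-month signal of 22500 at the start site was the brightest of any member probe at that age, though brightness also depends on the probe.

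Rbl1, the third member of the retinoblastoma family, had 2 usable promoter probes on chromosome 2, from 156896092 to 156896476. They had signals of 247 and 321 at 32 months and 285 and 356 at 3 months, with log2 ratios of -0.21 and -0.15. The region was thus 1.13-fold lower at 32 months. The first of these probes lies at bases -163 to -117 of the RefSeq start, and 2 further probes were not well above background at either age.

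Trp53, the gene of p53, was covered by 5 probes inside the gene and 2 in the promoter it shares with Wrap53 (Wdr79 in the files), a gene transcribed in the opposite direction. The region inside the gene, on chromosome 11 from 69396352 to 69397419, had a median of -0.15 ± 0.53. Signals at 32 months were 397, 146, 224, 276 and 1440, against 550, 178, 153, 185 and 1940 at 3 months. All 5 lay within 2-fold, from -0.33 to 0.72. The only usable probe of the shared promoter had 87.3 at 32 months and 95.7 at 3 months, a ratio of 0.0068, too few probes for a region value. The first inside probe, at -0.33, matches bases -202 to -150 before the RefSeq start, so the design's annotation and RefSeq's start differ for it.

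**Figure D3:**
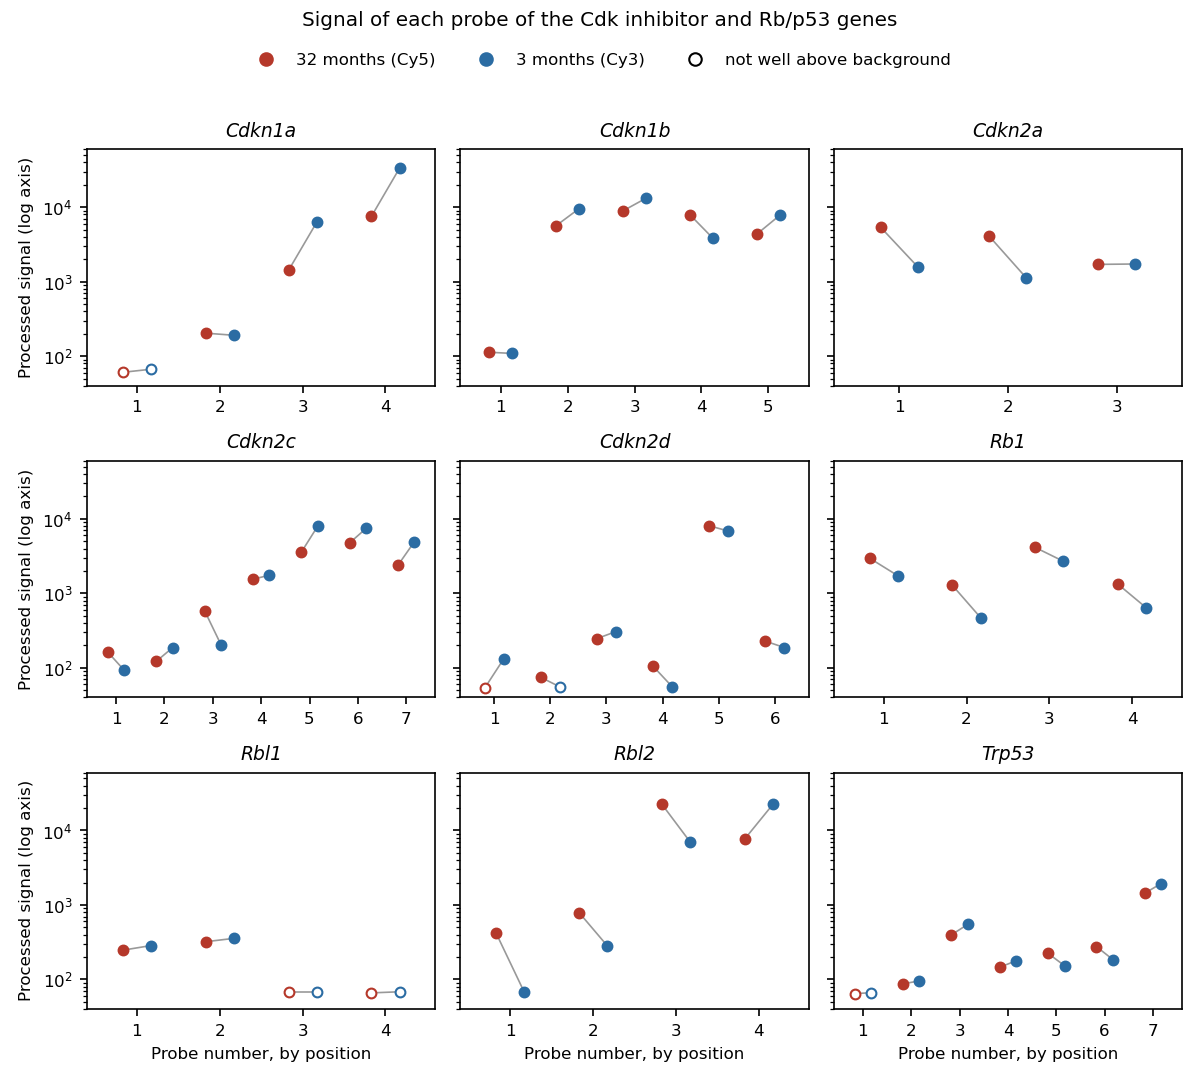
Processed signal (log axis) of every member probe by gene, numbered by rising position, with 32 months in red and 3 months in blue and a line joining the ages. Open circles were not well above background at that age. In Rb1 all 4 red points are above the blue, in Rbl2 3 of 4 are, and in Cdkn1a the 2 brightest probes are lower at 32 months.

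Counted by probe, 10 of the 40 usable member probes (25%) were at least 2-fold higher at 32 months and 6 (15%) at least 2-fold lower. Over all 62410 usable probes these shares were 6.35% and 3.35%. The median of the member probes, 0.027, was close to the 0.016 of all probes, and the members had larger shares on both sides. After normexp correction 9 member probes were at least 2-fold higher and 2 lower (Cdkn1a probe 4 and Rbl2 probe 4), with shares of 6.66% and 0.553% over all probes. The 9 were not all among the 10. Rbl2 probes 1 and 2, Cdkn2c probe 3 and Cdkn2d probe 4 fell to 0.35, 0.63, 0.48 and 0.0095. Rb1 probes 1 and 3 and Cdkn2d probe 5 passed 2-fold instead, at 1.44, 1.36 and 1.19. In that setting 29 of the 40 member probes kept their sign, among them all 16 past 2-fold without that correction. Between 8 and 10 were higher and 5 or 6 lower after loess correction, uncentred or with block medians removed. Over all probes the shares in these settings were 5.53% to 6.22% higher and 3.21% to 4.25% lower. Large ratios are more common among bright probes. Of 19 member probes with a geometric mean signal of at least 1000, 4 were at least 2-fold higher and 5 lower, where the shares over all such probes were 10.3% and 4.39%. Of 21 dimmer member probes 6 were higher and 1 lower, against 4.39% and 2.84%. Probes of a region lie close together, share the same DNA samples and are not independent.

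Among the members' promoter probes more were past 2-fold on the higher side, and among the inside probes more on the lower side. Among 25 usable promoter probes, those of the shared Trp53 promoter included, 8 were at least 2-fold higher and 2 lower, with a median of 0.23. Over all promoter probes 6.11% were higher and 3.44% lower. Among 15 inside probes 2 were at least 2-fold higher and 4 lower, with a median of -0.17, against shares of 6.84% and 3.25% over all inside probes. After normexp correction 1 inside probe was higher and 2 lower, against 8.64% and 0.756% over all inside probes. In that setting 8 promoter probes were higher and none lower, against 5.58% and 0.443% over all promoter probes. The 8 were not all the same promoter probes as before. Rb1 probes 1 and 3 and Cdkn2d probe 5 replaced Rbl2 probes 1 and 2 and Cdkn2c probe 3. The difference between the annotations was not tested.

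**Figure D4:**
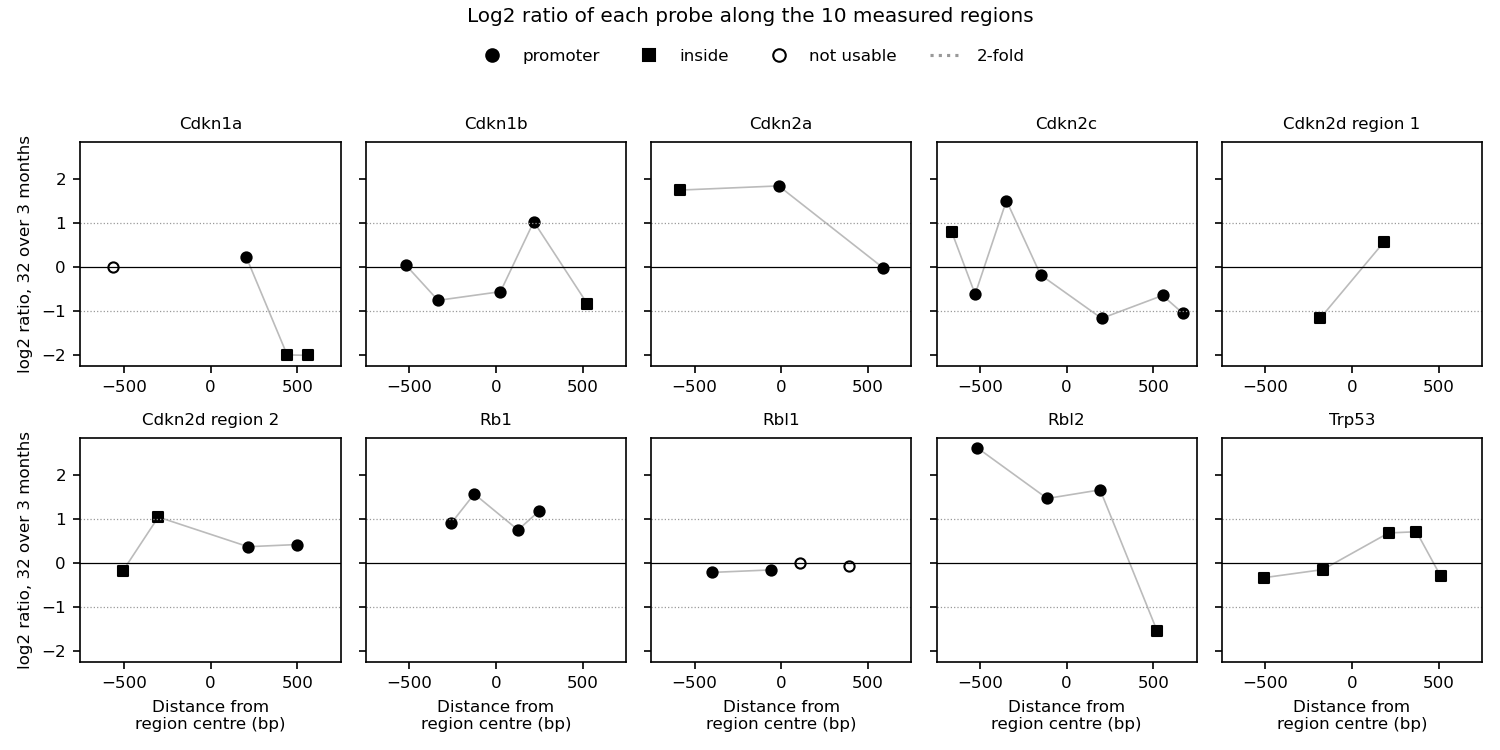
Log2 ratio of 32-month over 3-month signal for each probe by its distance in bp from the centre of its region, with promoter probes as circles, inside probes as squares, unusable probes open and 2-fold as dotted lines. Cdkn2a, Rbl2 and Cdkn1a each show a step between neighbouring probes, of -1.87, -3.22 and -2.24, while the Rb1 probes stay between 0.76 and 1.58.

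Disagreement among neighbouring probes was larger in the members than in regions at large. The median range over the probes of a region was 1.80, against 0.76 over all regions, and the median SD was 0.89, against 0.36. Range rises with probe number, with medians of 0.37, 0.85 and 1.24 over all regions with 2, 4 and 7 usable probes. Among regions of equal probe number, 52.7%, 48.1% and 90.8% were at least as wide as Rb1, Trp53 and Rbl1. For the other members this share ran from 1.21% (Rbl2) to 28.4% (second Cdkn2d region). Both Rbl2 and Cdkn2c held at least 1 probe 2-fold higher and 1 probe 2-fold lower. That held for 2 of 10 member regions and for 1.47% of all regions, or 2 of 6 and 2.38% where 4 or more probes were usable. After normexp correction it held for Rbl2 alone, since the Cdkn2c probes then ran from -0.55 to 0.48, and for 0.215% of all regions. The median range was then 1.02 in the members and 0.48 over all regions. This criterion was chosen after the values were seen.

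Most member probes held a site at which DNA can be methylated. A CG pair was present in 32 of 40 usable member probes (80%) and in 59.1% of all usable probes. Of the 10 member probes at least 2-fold higher 7 held one, as did 5 of the 6 at least 2-fold lower. The letters CCCGGG, the same on both strands and cut by the enzymes SmaI and XmaI, were in 1 member probe (Cdkn2d probe 3, at -0.17) and in 0.393% of all usable probes. They were in 2 of 12 RefSeq promoter windows of the members, those of Cdkn1a and Cdkn1b, and in 13.5% of all windows. The 12 include a window of Cdkn2b, which has no probe, and none of Rb1.

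Genes next to the members had region medians within 2-fold, as had most regions. The nearest measured region on either side of each member, of which 18 belonged to other genes, had medians between -0.41 and 0.42. None was called, where 2.01% of all regions were called higher and 0.632% lower. Over all regions 2.98% had medians at least 2-fold higher and 1.02% lower. The highest probes of Ghrh, next to Rbl1, and Lpar6, next to Rb1, were past 2-fold, at 1.44 and 1.12. Next to Cdkn2a the nearest regions were Mtap at -0.18 ± 0.22, 157 kb away, and Dmrta1 at -0.41 ± 0.51, 413 kb away. Next to Rb1 they were Lpar6 at 0.22 ± 0.68 and Itm2b at 0.18 ± 0.89. Next to Rbl2, Aktip, 63.2 kb away, had -0.062 ± 0.26. Next to Cdkn1a, Srsf3, 56.3 kb away, had -0.39 ± 0.14 and Cpne5, 143 kb away, 0.42 ± 0.31.

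Genes that act with these brakes were mostly level. Of 77 measured genes in 5 lists, 2 were called higher and none lower, where 2.31% of all 14488 measured genes were called higher and 0.759% lower. Cdc25c, a phosphatase that activates mitotic Cdk, had 1.18 ± 0.00037 over 2 probes inside the gene, with 1740 and 2370 at 32 months and 844 and 1150 at 3 months. The promoter shared by Lin52, a subunit of the DREAM complex that represses cell cycle genes, and Aldh6a1 had 1.12 ± 0.057 over 2 probes, with 287 and 585 at 32 months and 150 and 289 at 3 months. Each of these genes had another region that was not called, the divergent promoter of Cdc25c at 0.31 ± 0.25 and the inside of Lin52 at 0.49 ± 0.19, both over 3 probes. Averaged over their regions the genes stood at 0.75 and 0.81, under 2-fold. The Lin52 call was lost after normexp correction, uncentred, with block medians removed, with the scanner's log ratio and with at least 3 usable probes. The Cdc25c call was lost with block medians removed and with at least 3 usable probes. List medians were -0.087 for 15 cyclin, Cdk and Cdc25 genes, G1 and mitotic ones together, and 0.016 for 15 genes of E2F, DP and DREAM. They were -0.031 for 13 genes of the p53 family and its regulators and -0.013 for 23 p53 target genes. For 11 other Cdk inhibitor and turnover genes the median was -0.30, against 0.014 over all genes.

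**Figure D5:**
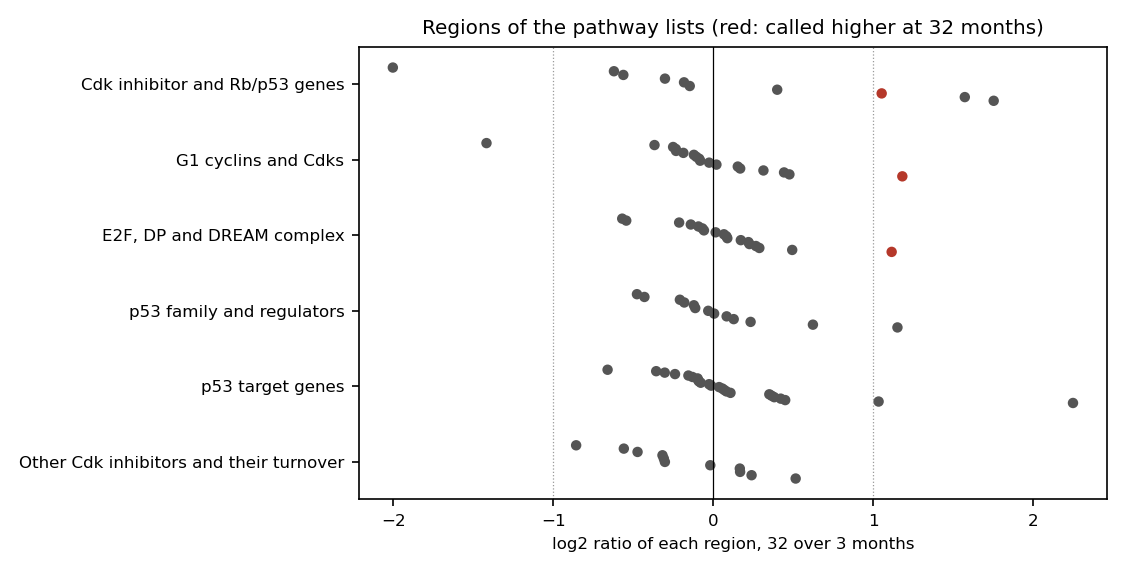
Median log2 ratio of 32-month over 3-month signal of each measured region (points) for the member genes and 5 pathway lists (rows), with called regions in red and 2-fold as dotted lines. Most regions of the lists lie within 2-fold of 0, and the called ones are those of Rb1, Cdc25c and Lin52. The row named G1 cyclins and Cdks also holds mitotic genes such as Ccnb1 and Cdc25c.

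Another 4 regions of these lists had medians past 2-fold without a call in the main setting, and they are named although chosen after their values were seen. With the called regions included, 5 of 84 list regions had medians at least 2-fold higher and 1 of 84 lower. Over all regions these shares were 2.98% and 1.02%. Plk2, a kinase gene that p53 induces, had 2.25 ± 1.43, with 4730, 2810, 6090 and 8860 at 32 months and 443, 898, 1410 and 1440 at 3 months in its 4 bright probes and another, dim probe at -0.26. The promoter shared by Trp73, a p53 relative, and Wdr8 had 1.15 ± 1.26, with 5 probes above 0 and 2 at -0.84 and -1.93. Apaf1, which encodes the scaffold of the apoptosome, had 1.03 ± 1.68 over 2 probes at 2.22 and -0.15. Ccnb1, the gene of cyclin B, had -1.42 ± 1.65 over 6 probes. After normexp correction Plk2 and Apaf1 were called higher.

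In Ccnb1, 3 neighbouring probes inside the gene had signals of 183, 4540 and 1770 at 32 months and 1390, 32800 and 13600 at 3 months. Their log2 ratios of -2.79, -2.71 and -2.80 differed by less than 0.1, while the probes on both sides lay between -0.12 and 0.58. As in Cdkn1a and Rbl2, low and level or high values were thus adjacent in 1 region. Mdm2 and Mdm4, the genes of the main p53 antagonists, had 0.62 ± 0.76 and 0.13 ± 0.14 over 2 probes each. Ccnd1 and Cdk4, partners in the kinase that INK4 proteins inhibit, had -0.23 ± 0.41 over 3 probes and, in a promoter shared with March9, -0.23 ± 0.55 over 4 probes. Cdkn1c, the remaining CIP/KIP gene, which is imprinted, had 0.52 ± 0.21 over 7 probes, all above 0, and was called higher after normexp correction.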

How the data were processed

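Genomic DNA of both ages was measured on 2 Agilent arrays, each with both dyes. The scanner software was Feature Extraction 9.1.3.1 (Agilent), per the submitters' processing notes. Per the file headers, the deposited intensity values (processed signals) had been background-subtracted, detrended and scaled linearly between dyes. The deposited log10 ratio served as an alternative. The authors' value table equalled the processed signals in 100% of positioned probes. Green columns were read from the 3-month and red columns from the 32-month file of each array.

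For each positioned probe the log2 ratio of red over green was centred on its array's median. Control spots and probes with an outlier flag were left out. Regions took the median of their usable probes, of which at least 2 were required.

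No test was made, since there was 1 sample per age and array. The calling rule was checked on simulated data, with ratios shuffled over probes and shifts planted in some regions. That check did not keep the likeness of neighbouring probes and did not count calls in regions without a planted shift. Members, gene lists and settings were chosen with earlier results of these data known. Named genes are all members, the called genes of 5 lists and the nearest regions. Those named beyond that were chosen after their values were seen. Gene names were updated through RefSeq (GRCm38.p6), whose promoter sequences were matched letter by letter to probes (at least 15 bases). Python 3.11.15, numpy 2.4.6, pandas 2.3.3 and, for normexp and loess, limma 3.58.1 were used. Negative control brightness limits precision at low signal, and the number of arrays limits it throughout.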

Additional observations from a re-analysis of the deposited data

How the results depend on the processing

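Of the 14 alternative settings run, some changed how many regions were called. Main counts were 1 member region called higher and none lower, 309 and 97 regions of the whole array, and 2 pathway genes. No setting called a member lower. The member count was 0 with uncentred ratios, with block medians removed and with the scanner's log ratio, and 2 after normexp correction (Rb1 and Cdkn2a). After loess correction it stayed at 1, with Cdkn2a called and Rb1 not. Pathway genes called numbered 1 uncentred and with the scanner's log ratio, 4 after normexp (Apaf1, Cdc25c, Cdkn1c and Plk2), 4 at a threshold of 1.5-fold (Cdc25c, Lin52 and Mdm2 higher, Cdkn2aip lower), and 0 with block medians removed or at least 3 usable probes. Over all regions, lower calls numbered 20 after normexp, 56 with dim probes kept, 60 with at least 3 usable probes and 349 at 1.5-fold, where higher calls numbered 684. A higher minimum leaves fewer regions and 1.5-fold is a looser threshold, and for the other settings the cause was not tested. The sign of the Trp53 median turned with the mean over probes (0.13) and after normexp (0.15), and that of the first Cdkn2d region when regions were joined over 2000 bp (0.40). Cdkn2a gave no value at 500 bp and the first Cdkn2d region none where both ages had to be well above background. Rbl1 gave no value with at least 3 usable probes. The other 8 member regions held their sign wherever they gave a value. No paired analysis was possible because each age has 1 sample per array. Dim spots limit the ratios of Cdkn2d, Rbl1, Trp53 and the first Rbl2 probe.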
